A study of Mus musculus with 2 samples.

Results

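Klf2, Klf4, Klf5, Esrrb, Tfcp2l1, Tbx3, Prdm14, Zfp42 and Nr0b1 are 9 nuclear proteins of the naive pluripotent state, taken here by name from the 27998 genes of 2 single-cell count matrices. The cells were mouse induced pluripotent stem cells (iPSCs), that is, body cells turned back to pluripotency by reprogramming, and they were grown with serum. One library came from SRFΔ/Δ cells (knockout, KO), in which both floxed copies of Srf, the gene of serum response factor, had been deleted. The other came from SRFf/f cells (wild type, WT), which kept both floxed copies intact. Each genotype was 1 library. No p-value can be given between genotypes, and the number of clones, the Cre used and the reprogramming method were not given in the sources used here. The members were followed in cells with at least 1000 genes and 1 to 10% mitochondrial counts, in which the unique molecular identifiers (UMIs, 1 per captured transcript) of 8 endoderm genes were summed: Gata6, Gata4, Sox17, Pdgfra, Dab2, Cubn, Lrp2 and Amn. Cells with at most 1 such UMI are called low-endoderm below, and cells with at least 10 high-endoderm.

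Naive pluripotency is the state of the early epiblast. Mouse stem cells hold it through the cytokine LIF, whose receptor activates STAT3, and through Wnt signalling, which relieves repression by Tcf7l1. STAT3 induces Klf4 and Tfcp2l1, and loss of Tcf7l1 repression releases Esrrb. The other factors act beside them, so that each factor can be lost with little effect while loss of several ends self-renewal. In serum the factors are unevenly expressed from cell to cell. Several of them also have roles outside the epiblast, among them Klf5 and Tbx3 in extraembryonic cells.

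Promoter windows of RefSeq (assembly GRCm38.p6, 250 bases before to 50 after a start site) were found for 6 of the 9 members, 7 windows in all; Klf5, Tbx3 and Prdm14 had none. They were searched on both strands for the CArG box that SRF binds, for TTCNNNGAA, a STAT-type palindrome, for GGGNGTGG, a KLF-type motif, and for CAAGGTCA, the extended half-site of Esrrb. The CArG box was in 0 of the 7 windows, against 1.63% of all 32851 windows. TTCNNNGAA was in the more upstream of the 2 windows of Esrrb and in 8.30% of all windows. GGGNGTGG was in the windows of Tfcp2l1 (at 2 places) and Zfp42 and in 17.6% of all windows, and CAAGGTCA in none of the 7 and in 1.56% of all. The motifs as spelled do not overlap in these windows. A match describes letters and is not a binding site, and no match says only that these letters are not in this window. The 250 bases before the start site are shown for the windows with a match, 5′ to 3′ on the strand of the gene, because they place the STAT-type and KLF-type letters in front of members whose levels are compared below. Capitals mark the matched motif, which in Tfcp2l1 and Zfp42 reads on the opposite strand. The Esrrb stretch is chr12:86360867-86361116 (+), that of Tfcp2l1 chr1:118627695-118627944 (+) and that of Zfp42 chr8:43307010-43307259 (-).
Esrrb: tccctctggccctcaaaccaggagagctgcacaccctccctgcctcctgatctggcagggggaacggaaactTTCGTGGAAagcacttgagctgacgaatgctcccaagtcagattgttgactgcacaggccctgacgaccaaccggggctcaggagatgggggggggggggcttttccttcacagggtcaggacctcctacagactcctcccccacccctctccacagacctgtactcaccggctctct
Tfcp2l1: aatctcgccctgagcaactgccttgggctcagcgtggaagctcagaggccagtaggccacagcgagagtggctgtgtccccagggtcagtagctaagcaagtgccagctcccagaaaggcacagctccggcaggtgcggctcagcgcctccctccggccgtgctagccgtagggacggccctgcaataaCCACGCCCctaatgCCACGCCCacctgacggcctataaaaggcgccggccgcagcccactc
Zfp42: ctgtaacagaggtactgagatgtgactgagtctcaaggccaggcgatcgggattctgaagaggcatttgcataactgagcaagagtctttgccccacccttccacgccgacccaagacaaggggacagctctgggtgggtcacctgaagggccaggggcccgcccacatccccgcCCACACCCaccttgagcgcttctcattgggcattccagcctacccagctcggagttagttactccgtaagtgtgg

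Of 1073 KO and 954 WT cells, 753 and 902 passed the gene and mitochondrial limits. A further 22 KO and 7 WT cells with at least 10 UMIs of 10 fibroblast genes were set aside. This left 580 KO and 875 WT low-endoderm cells (14503486 and 22713171 UMIs, medians of 24556 and 26636 per cell), 95 KO high-endoderm cells (2262835 UMIs) and 3 WT ones. In between, 56 KO and 17 WT cells held 2 to 9 endoderm UMIs. Srf had 3 UMIs in the KO low-endoderm cells (0.207 per 1000000 UMIs, or CPM) and 195 in the WT ones (8.59 CPM). Pluripotency genes were present in the low-endoderm cells of both libraries: Pou5f1 stood at 753 CPM in KO and 811 in WT and Sox2 at 218 and 203. The 8 endoderm genes summed to 9.72 and 5.33 CPM and the 10 fibroblast genes to 13.8 and 8.28. Both sums were kept low by the limits that chose these cells, so they are no check of the iPSC label. The libraries shared 2 barcodes, of which 1 belonged to a low-endoderm cell in each library.

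The 3 Krüppel-like factors differed little between the genotypes in low-endoderm cells, apart from Klf4. Klf4, a reprogramming factor induced by STAT3, stood at 247 CPM in KO (95% interval 239 to 256) and 316 in WT (309 to 323), a log2 ratio of KO over WT of -0.35 (-0.41 to -0.29). Klf2, a factor that ERK signalling removes from naive cells, stood at 499 CPM in KO and 530 in WT (log2 ratio -0.09, -0.13 to -0.05). Klf5, which also acts in trophectoderm, stood at 144 and 129 CPM (0.16, 0.08 to 0.24). Klf4 was thus the 1 of the 3 past a ratio of 5 to 4 (0.32 on the log2 scale), the size limit used here in place of a test. Intervals reflect counting error alone and not how cells, cultures or clones differ. Counts were not divided by gene length, so levels are compared within a gene.

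Among the other members, Zfp42 was higher and Tfcp2l1 lower in the KO library. Zfp42 (Rex1), a zinc-finger protein used as a marker of naive cells, stood at 105 CPM in KO (100.3 to 111) and 79.0 in WT (75.4 to 82.7), a log2 ratio of 0.42 (0.32 to 0.52). Tfcp2l1, a CP2-family factor downstream of STAT3, stood at 52.7 CPM in KO (49.1 to 56.6) and 68.8 in WT (65.4 to 72.3), a log2 ratio of -0.38 (-0.51 to -0.26). In neither gene did the 2 counting intervals overlap.

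The orphan nuclear receptors were nearly level. Esrrb stood at 63.2 CPM in KO and 64.1 in WT, and Nr0b1 (Dax1), which lies on the X chromosome, at 61.1 and 63.2. Their log2 ratios were -0.02 (-0.14 to 0.10) and -0.05 (-0.17 to 0.07). The T-box factor Tbx3 stood at 51.4 and 48.2 CPM (0.09, -0.04 to 0.23). For these 3 genes the counting interval of the ratio held 0 and stayed inside the size limit.

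Prdm14, which represses FGF signalling and DNA methylation genes in naive cells, was near the limit of detection. It gave 33 UMIs in 580 KO cells (2.28 CPM) and 74 in 875 WT cells (3.26 CPM). Its log2 ratio of -0.51 had a counting interval of -1.16 to 0.09, so that a difference was not detectable at this depth.

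**Figure D1:**
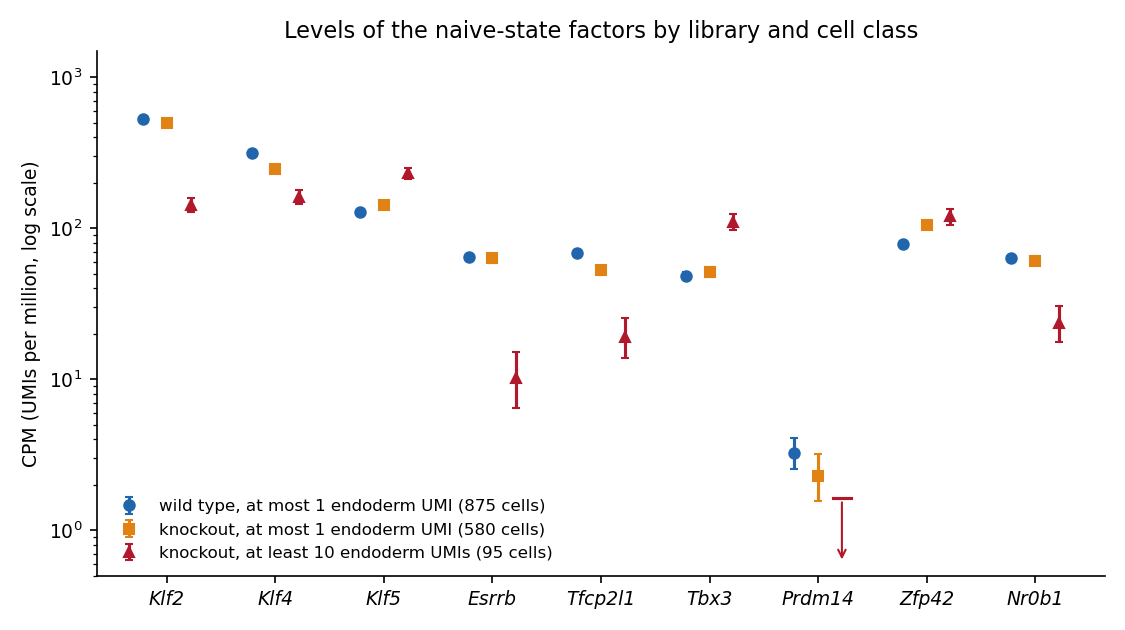
CPM (log axis) of the 9 members in WT low-endoderm cells (blue circles), KO low-endoderm cells (orange squares) and KO high-endoderm cells (red triangles), with exact 95% Poisson intervals; the arrow under Prdm14 starts at the upper limit of a count of 0. The 2 low-endoderm classes lie close together, while Klf2, Esrrb, Tfcp2l1 and Nr0b1 lie lower and Tbx3 stands higher in the high-endoderm cells, with Klf5 above its low-endoderm level by less than 2-fold.

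By size, 1 of the 8 members that averaged 10 CPM or more was past the limit and higher in KO low-endoderm cells (Zfp42), where 17.6% of 6443 genes were. A further 2 of 8 were past it and lower (Klf4 and Tfcp2l1), where 9.70% of genes were. Prdm14, under 10 CPM, was also past the limit. The members' median log2 ratio was -0.04 over the 8 and -0.05 over the 9, against 0.06 for all genes tested, whose 10th and 90th percentiles were -0.32 and 0.43. Among the core factors, Nanog was also lower (73.3 CPM in KO, 102 in WT, log2 ratio -0.48), while Pou5f1, Sox2 and Sall4 stayed within the limit. As described next, Klf4, Tfcp2l1 and Prdm14 were within the limit when cells with the usual share of chromosome 8 transcripts were compared, and past it when cells with a raised share were.

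The share of a cell's UMIs that came from chromosome 8 split the KO library. It used autosomal genes up to 500 CPM other than the members and ribosomal protein genes, and each cell's share was divided by the WT median. The share was read from RNA and gives no count of chromosomes. The ratio was above 1.2 in 280 of 580 KO low-endoderm cells (48.3%, exact 95% interval 44.1 to 52.4%) and in 88 of 875 WT cells (10.1%, 8.14 to 12.2%), and 48 KO and 25 WT cells lay between 1.1 and 1.3. Cells above the limit are called raised, the others usual. Raised and usual KO cells had medians of 1.41 and 0.995 for this share, 25055 and 24159 UMIs, and 3.84% and 4.76% mitochondrial counts. Klf2 (chr8:72319033-72321656) and Zfp42 (chr8:43295063-43306980, GRCm38) lie on chromosome 8 and the other 7 members do not.

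Within the KO library, 5 of 8 members were lower in raised than in usual cells by the same size limit, where 16.0% of genes were. None of the 8 was higher by that size, where 9.93% of genes were. Tbx3 differed most, with 30.3 CPM in the 280 raised and 72.1 in the 300 usual cells (log2 ratio -1.25, -1.49 to -1.02). Tfcp2l1 stood at 40.5 and 64.7 CPM (-0.68), Esrrb at 51.2 and 74.8 (-0.55), Klf4 at 201 and 293 (-0.54), and Nr0b1 at 50.2 and 71.7 (-0.51). Prdm14 gave 9 and 24 UMIs in these cells. The members on chromosome 8 did not follow: Klf2 stood at 483 and 515 CPM (-0.09) and Zfp42 at 113 and 97.7 (0.21). Klf5 was level, with 147 and 141 CPM.

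The same split of the WT library gave a smaller pattern. There, 2 of 8 members were lower past the limit in the 88 raised than in the 787 usual cells (10.5% of genes were): Nr0b1 with 45.9 against 65.2 CPM (log2 ratio -0.50, -0.81 to -0.22) and Tbx3 with 37.1 against 49.5 (-0.41, -0.75 to -0.09). Zfp42 was higher, with 104 against 76.1 CPM (0.46, 0.25 to 0.65), where 11.7% of genes were higher by that size. Esrrb (64.6 and 64.1 CPM) and Klf4 (302 and 317 CPM) were close together in WT cells, and Tfcp2l1 stood at 58.5 and 69.9 CPM (-0.25, -0.52 to -0.0003). Nr0b1 and Tbx3 were thus lower past the limit in the raised cells of both libraries, whereas the ratios of Esrrb, Klf4 and Tfcp2l1 were past the limit in KO and within it in WT cells. The ratio of Zfp42 was above 0 in both and past the limit in WT cells alone. With 1 library each, that difference between the libraries was not tested.

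Compared between genotypes within usual cells, no member was lower in KO past the limit, where 11.8% of genes were. Tbx3 (72.1 CPM in KO, 49.5 in WT, log2 ratio 0.54, 0.39 to 0.70) and Zfp42 (97.7 and 76.1, 0.36, 0.23 to 0.49) were higher, 2 of 8 where 23.2% of genes were. Esrrb stood at 74.8 and 64.1 CPM (0.22, 0.08 to 0.37), Klf4 at 293 and 317 (-0.12) and Tfcp2l1 at 64.7 and 69.9 (-0.11). The median over the 9 members was 0.13. So the KO library's lower Klf4 and Tfcp2l1 were not seen at this size in its usual cells, while its higher Zfp42 was.

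Within raised cells, 3 of 8 members were lower in KO past the limit, where 12.3% of genes were. These were Klf4 (201 against 302 CPM, log2 ratio -0.59, -0.72 to -0.46), Tfcp2l1 (40.5 against 58.5, -0.54, -0.83 to -0.23) and Esrrb (51.2 against 64.6, -0.34, -0.62 to -0.05). Prdm14, with 9 and 8 UMIs, had a log2 ratio of -1.49 (-3.02 to 0.10). None of the 8 was higher, where 17.2% of genes were, and Zfp42 stood at 113 and 104 CPM (0.12, -0.09 to 0.33). The raised WT group held 88 cells, and its intervals are wide. Whether the share of chromosome 8 plays a part in the members' levels was not tested.

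**Figure D2:**
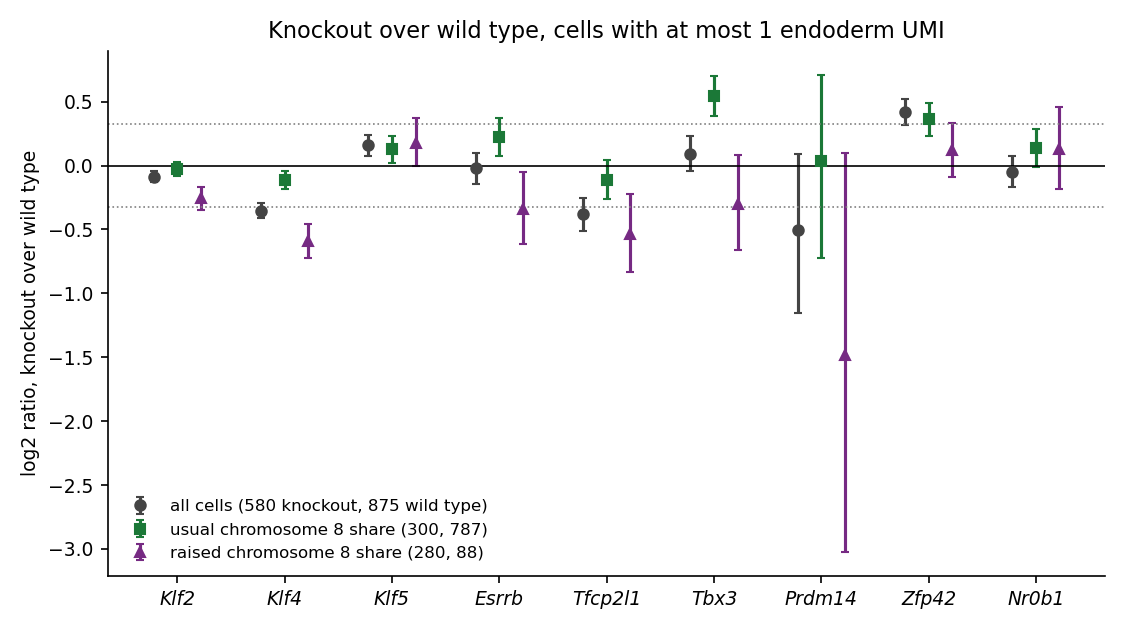
Log2 ratio of KO over WT for each member in low-endoderm cells, for all cells (grey circles), cells with the usual chromosome 8 share (green squares) and cells with a raised share (purple triangles), with exact 95% intervals for counting error; dotted lines mark a ratio of 5 to 4 in each direction. Tbx3 moves from 0.54 in usual to -0.30 in raised cells and Esrrb from 0.22 to -0.34, and Prdm14 has the widest intervals.

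High-endoderm cells of the KO library held some members above and others below their low-endoderm level. Klf2, Esrrb, Tfcp2l1 and Nr0b1 were lower in them than in KO low-endoderm cells, and Tbx3 was higher, each by at least 2-fold, while Klf4, Klf5 and Zfp42 stayed within that size. Esrrb had the largest ratio of the 8 members above 10 CPM, with 10.2 CPM (23 UMIs, 6.44 to 15.3) in 95 high-endoderm cells against 63.2 in 580 low-endoderm cells (log2 ratio -2.61, -3.30 to -2.04). Klf2 stood at 143 against 499 CPM (-1.80, -1.97 to -1.64), Tfcp2l1 at 19.0 against 52.7 (-1.46, -1.95 to -1.03), and Nr0b1 at 23.4 against 61.1 (-1.37, -1.81 to -0.98). In each of these 4 genes the counting intervals of both classes lay apart. Prdm14 gave 0 UMIs in the high-endoderm cells. Put at a floor of 3 counts over that class (1.33 CPM), Prdm14 was 1.72-fold below the 2.28 CPM of the low-endoderm cells. That value leaves out counting error and is no least difference. The exact upper limit of the log2 ratio was -0.40, and the intervals of both levels overlapped (up to 1.63 and from 1.57 CPM). Within usual and within raised cells the upper limit was above 0, so a difference was not detectable there.

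The other members went different ways. Tbx3, which can drive extraembryonic endoderm as well as self-renewal, stood at 110 CPM in high-endoderm (96.8 to 125) and 51.4 in low-endoderm cells (log2 ratio 1.10, 0.88 to 1.31). Klf5 stood at 232 and 144 CPM (0.69, 0.55 to 0.83). Klf4 stood at 162 and 247 CPM (-0.61), and Zfp42 at 120 and 105 (0.19, -0.01 to 0.37). Counted at 2-fold, 4 of 8 members were lower, where 5.03% of 6973 genes were, and 1 of 8 was higher, where 15.4% were. The members' median was -0.99 over the 8 and -0.78 over the 9 with Prdm14 at its floor (-1.37 with 0.5 counts added to its 0), against 0.12 for all genes. Of the core factors, Nanog (4.86 against 73.3 CPM, -3.85) and Sox2 (20.3 against 218, -3.40) were lower than any member above 10 CPM by this ratio, Pou5f1 stood at 457 against 753 CPM, and Sall4 at 112 against 79.2. The call on Tbx3 was close to its limit: its log2 ratio was 0.94 with size factors by the median of ratios and 0.71 with at least 20 endoderm UMIs.

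Here too the chromosome 8 share differed between the classes, with 62 of 95 high-endoderm cells raised (65.3%) against 48.3% of low-endoderm cells. In usual cells alone (33 high-endoderm and 300 low-endoderm), Klf2 stood at 53.1 against 515 CPM (log2 ratio -3.26, -3.77 to -2.82) and Zfp42 at 59.9 against 97.7 (-0.69, -1.18 to -0.27). In raised cells (62 and 280), Klf2 stood at 186 against 483 CPM (-1.38) and Zfp42 at 148 against 113 (0.39, 0.17 to 0.60). Both genes on chromosome 8 thus stood higher in raised than in usual high-endoderm cells, and the sign of the Zfp42 ratio depended on the class taken. Tbx3 stood at 119 CPM in usual and 106 in raised high-endoderm cells, and its log2 ratio to low-endoderm cells (72.1 and 30.3 CPM) was 0.72 and 1.81, so that it was past 2-fold in raised cells alone. Nr0b1 stood at 17.7 and 26.2 CPM in usual and raised high-endoderm cells, with log2 ratios of -1.96 (-2.94 to -1.23) and -0.92 (-1.45 to -0.47), past 2-fold in usual cells alone. Klf2, Esrrb (8.17 and 11.1 CPM, -3.08 and -2.16) and Tfcp2l1 (20.4 and 18.3 CPM, -1.62 and -1.12) were lower past 2-fold in both. Klf4 (165 and 160 CPM, -0.82 and -0.32) and Klf5 (213 and 241 CPM, 0.60 and 0.71) stayed within it in both. Usual high-endoderm cells carried a median of 69 endoderm UMIs and raised ones 42.5. The part of the chromosome 8 share in these ratios was not tested.

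Followed over the number of endoderm UMIs in KO cells (0 to 1, 2 to 9, 10 to 29, 30 to 99 and at least 100, with 580, 56, 32, 41 and 22 cells), the members took 3 shapes. Klf2 was lower in each class than in the one before, at 499, 323, 185, 163 and 58.7 CPM, although 185 and 163 had overlapping intervals. Esrrb was level at first and then lower, at 63.2, 62.1, 17.8, 9.59 and 1.68 CPM, the last from 1 UMI. Tfcp2l1 followed a like course, at 52.7, 53.0, 24.7, 22.4 and 6.71 CPM, and so did Nr0b1, at 61.1, 52.3, 30.2, 23.4 and 15.1.

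Klf5, Tbx3 and Zfp42 read highest in the cells with 10 to 29 endoderm UMIs. Klf5 read 144, 152, 296, 214 and 180 CPM over the 5 classes. Tbx3 read 51.4, 85.4, 170, 77.8 and 87.3 CPM, so that it was already higher at 2 to 9 endoderm UMIs (interval 70.9 to 102). Zfp42 read 105, 117, 176, 112 and 63.8 CPM. For Klf5 and Tbx3 the counting interval of that class (258 to 339 and 142 to 203 CPM) lay above those of the other 4 classes, and for Zfp42 (147 to 209) too. These intervals leave out the spread between its 32 cells. The class held 216 UMIs of Klf5, 124 of Tbx3 and 128 of Zfp42. Single KO high-endoderm cells held up to 31, 22 and 25. Whether a few cells carried the highest values was not tested. Klf4 read 247, 208, 226, 148 and 104 CPM. The 5 classes had medians of 24556, 24708.5, 21130, 20999 and 26578.5 UMIs per cell, and doublets were not called. They were not split by chromosome 8 share, although raised high-endoderm cells had fewer endoderm UMIs than usual ones (medians of 42.5 and 69). Raised and usual high-endoderm cells held 148 and 59.9 CPM of Zfp42 and 186 and 53.1 of Klf2. For Klf5 they held 241 and 213, and for Tbx3 106 and 119. Whether the mix of raised and usual cells plays a part in these courses was not tested.

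**Figure D3:**
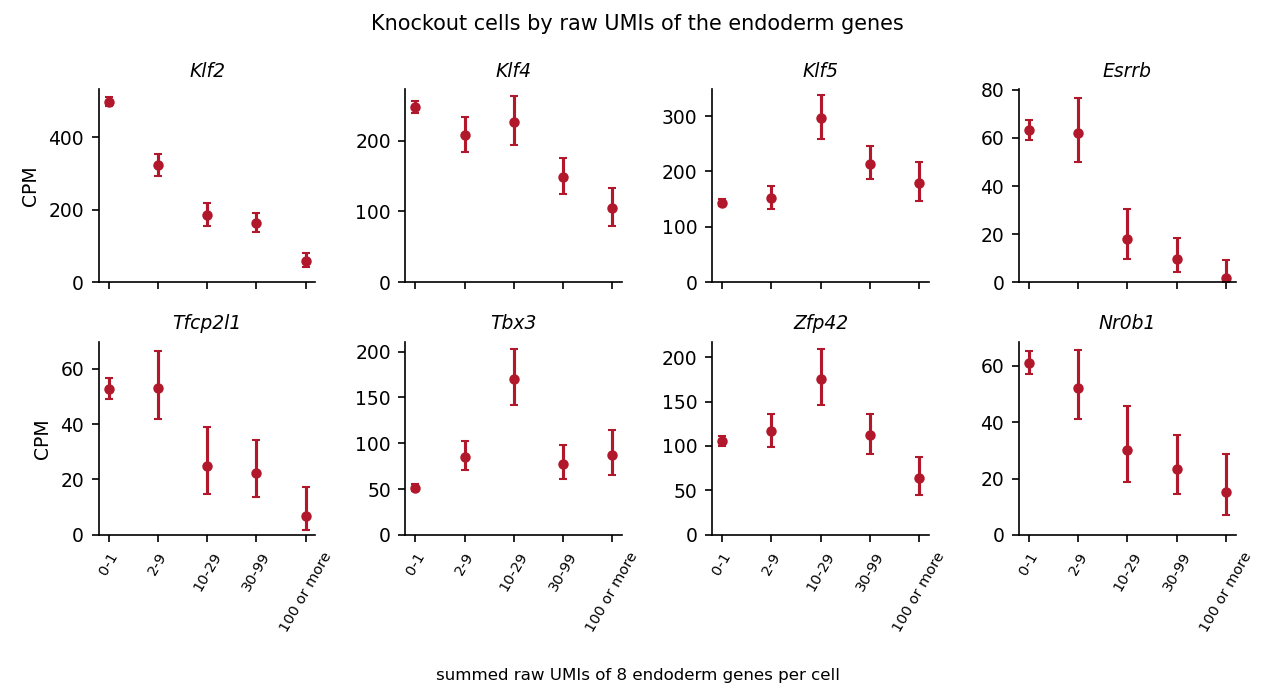
CPM of 8 members (1 panel each, axes from 0) in KO cells grouped by their summed raw UMIs of the 8 endoderm genes, with exact 95% Poisson intervals. Klf2 goes from 499 to 58.7 CPM across the groups, Esrrb drops after 2 to 9 endoderm UMIs, and Klf5, Tbx3 and Zfp42 are highest at 10 to 29.

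The WT library held 3 high-endoderm cells, with 15, 10 and 126 endoderm UMIs. The cell with 10 carried UMIs of 6 members, 13 of them from Klf2. The cell with 15 carried 1 member UMI in all, from Klf4. The cell with 126 carried 1 or 2 UMIs of each of 6 members. With 3 cells these are values only.

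Shares of cells with at least 1 UMI were compared after each cell had been thinned at random to 10000 UMIs, which kept 520 KO and 797 WT low-endoderm cells and left out 60 and 78 shallower ones. The shares are from 1 thinning, and their intervals leave out the spread between thinnings. Klf2 was detected in 92.5% of KO and 91.8% of WT cells, and Klf4 in 73.3% (69.2 to 77.0%) and 82.4% (79.6 to 85.0%). Tfcp2l1 was detected in 34.6% (30.5 to 38.9%) and 46.2% (42.7 to 49.7%), and Zfp42 in 59.6% (55.3 to 63.9%) and 54.0% (50.4 to 57.5%). The intervals of the genotypes lay apart for Klf4 and Tfcp2l1 and overlapped for Zfp42. For Tfcp2l1 the draw averaged 0.50 UMIs a cell in KO and 0.69 in WT, against 0.56 and 0.71 over all thinnings. Klf5 was found in 66.0% and 63.2% of cells, Esrrb in 44.8% and 47.3%, Nr0b1 in 38.8% and 40.9%, and Tbx3 in 33.8% and 32.7%. Prdm14 was found in 3.65% of KO and 3.26% of WT cells, from at most 1 UMI a cell after thinning. For Prdm14 the draw averaged 0.0365 UMIs a cell in KO and 0.0326 in WT, against 0.0235 and 0.0337 over all thinnings. The order of the genotypes was thus reversed in this draw. Without thinning the shares ran from 5% (Prdm14) to 93.8% (Klf2) in KO and from 7.43% to 94.9% in WT cells.

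Fibroblast-marker cells, thinned alike (19 KO of 22, median before thinning 26799 UMIs, and 7 WT, median 23586), gave a measure of free RNA for the genes fibroblasts lack. Klf5 was in 0 of 19 and 0 of 7, Tfcp2l1 and Prdm14 likewise, and Esrrb and Zfp42 each in 1 of 19 and 0 of 7. Nr0b1 was in 2 of 19 and 1 of 7. Klf2 (7 of 19, 4 of 7), Klf4 (10 of 19, 1 of 7) and Tbx3 (2 of 19, 3 of 7) are also made by fibroblasts and give no such measure. With 0 of 19 an interval still reached 17.6%, so the share of Prdm14 (3.65% in the 1 thinning) cannot be set apart from background.

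In KO high-endoderm cells (91 after thinning), Esrrb was found in 3.30% (0.69 to 9.33%), beside 1 of 19 fibroblast-marker cells. Thinned shares of this class too are from 1 draw, and their intervals leave out the spread between draws. For Esrrb the draw averaged 0.033 UMIs a cell, so its share is not used to judge background. Without thinning Esrrb was in 19 of 95 high-endoderm and 2 of 22 fibroblast-marker cells, at 10.2 CPM (6.44 to 15.3) and 3.12 CPM (0.378 to 11.3). These intervals overlap, so the level of Esrrb in high-endoderm cells cannot be set apart from free RNA at this depth. Klf2 was found in 57.1% of them, Tfcp2l1 and Nr0b1 in 18.7% each, Klf4 in 65.9% and Zfp42 in 56.0%. Klf5 was found in 78.0% (68.1 to 86.0%) and Tbx3 in 39.6% (29.5 to 50.4%), with 110 CPM of Tbx3 coming from cells with up to 22 UMIs before thinning. Of Prdm14 0 of 91 cells held a UMI, an interval of up to 3.97% for cells with a UMI at this depth, which sets no limit on how many cells express so low a gene.

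Cell-to-cell variation was above counting noise for nearly all members. At 10000 UMIs and averaged over all possible thinnings, the variance of Klf2 was 4.02 times its mean in KO and 3.25 times in WT cells, and that of Klf4 3.01 and 3.15 times, where a Poisson count would give 0.882 to 1.13 in 520 and 0.904 to 1.10 in 797 cells. Klf5, Tfcp2l1, Tbx3, Zfp42 and Nr0b1 exceeded these ranges in both libraries, with ratios of 1.24 to 1.69. Esrrb exceeded them with 1.32 in KO and, narrowly, 1.11 in WT cells, and in 1 thinning its WT ratio was 1.06, inside the range. Prdm14 lay within them in both (1.12 and 1.06). Pou5f1 gave 1.55 and 1.62.

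Excess CV2, the variance left above Poisson divided by the squared mean, takes out counting noise but can still depend on the level. Averaged in the same way, it was 1.08 in KO and 0.969 in WT cells for Tbx3, 0.846 and 0.889 for Nr0b1, and 0.775 and 0.651 for Klf4. It was 0.582 and 0.426 for Klf2, 0.566 and 0.460 for Tfcp2l1, 0.489 and 0.168 for Esrrb, 0.373 and 0.533 for Klf5, and 0.228 and 0.313 for Zfp42. The median gene stood at 0.105 and 0.103, so all 8 members varied more than the median gene in both libraries. In percentile among genes the 8 members stood between 83.9 (Zfp42) and 98.7 (Tbx3) in KO and between 73.8 (Esrrb) and 98.2 (Tbx3) in WT, while Pou5f1 stood at 34.5 and 35.6. The genes ranked were not matched by level.

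Between the genotypes the variation was higher in KO for 5 of the 8 members, where 53.6% of genes were, with a median log2 ratio of 0.20 against 0.07 for all genes. In cells with the usual chromosome 8 share (262 KO, 717 WT) it was higher in KO for 2 of 8, Klf2 and Esrrb, where 58.6% of genes were, with a median of -0.30 against 0.18. Tbx3 went from 1.08 to 0.647 in KO on leaving out the raised cells, and Klf4 from 0.775 to 0.575. Their WT values went from 0.969 to 0.934 and from 0.651 to 0.670. In raised cells (258 KO, 80 WT) it was higher in KO for 8 of 8, where 44.9% of genes were, with a median of 0.61 against -0.14. The direction of the members' difference in variation thus turned with the cells taken. Esrrb had the largest ratio of the 8 in all 3 sets, with 0.459 in KO and 0.0798 in WT raised cells and 0.417 in KO and 0.178 in WT usual cells. No interval was computed for excess CV2. The WT values of raised cells, and so the 8 of 8, rest on 80 cells. With a WT value as near 0 as 0.0798, the size of the Esrrb ratio in raised cells is not known.

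**Figure D4:**
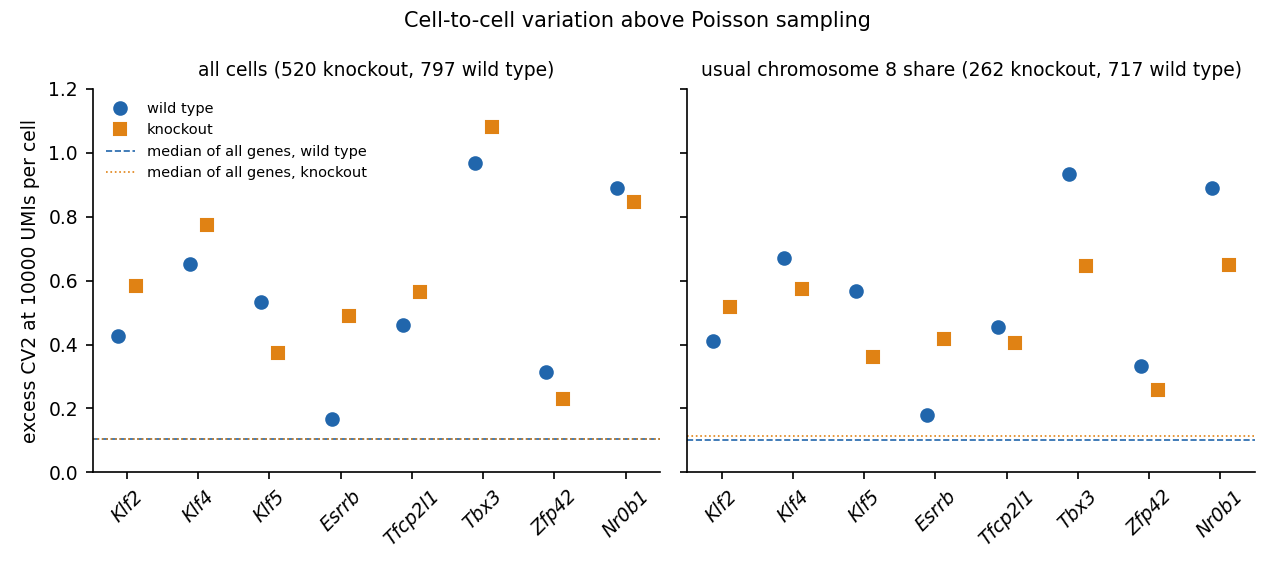
Excess CV2 (variance above Poisson over squared mean, at 10000 UMIs per cell) of 8 members in WT (blue circles) and KO (orange squares) low-endoderm cells, for all cells (left) and for cells with the usual chromosome 8 share (right), with the median of all genes as dashed (WT) and dotted (KO) lines. Tbx3 and Nr0b1 are highest in WT cells, and KO values of Tbx3, Klf4 and Nr0b1 are lower in the right panel than in the left.

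Members were weakly correlated over cells, mostly in the same direction. Over 36 pairs, on log2(thinned count + 1), the median Pearson r was 0.091 in KO and 0.074 in WT low-endoderm cells, and 35 of 36 pairs were above 0 in each library. The points are cells of 1 library, which share its preparation and free RNA, and most members gave 1 UMI or fewer per thinned cell on average, so these values are a description. Averaged over 20 thinnings, the highest pairs were Klf2 with Klf4 (0.31 in KO, 0.25 in WT) and Klf4 with Tbx3 (0.31 and 0.23). Esrrb with Tbx3 came next in KO (0.22; 0.11 in WT), and Klf4 with Tfcp2l1 in WT (0.18; 0.14 in KO).

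Klf4 was the member most like the rest: its r with the mean of the other 8 was 0.43 in KO and 0.31 in WT. Tbx3 followed in KO (0.34) and Klf2 in WT (0.26). Zfp42 (0.14 and 0.10) and Prdm14 (0.11 and 0.13) were least like the rest in KO. A low count limits r, and Prdm14 averaged 0.0235 UMIs per thinned cell in KO and 0.0337 in WT. These values pool raised and usual cells, between which several members differed in KO. In usual cells alone the KO minus WT difference of the median r was 0.0084 in 1 thinning, against 0.018 in all cells. The KO minus WT difference of the median r over 20 thinnings averaged 0.013 and ran from -0.0068 to 0.030, above 0 in 16 of 20, so that its sign depended on the thinning. In KO high-endoderm cells (91 cells) the median over 28 pairs was 0.098.

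**Figure D5:**
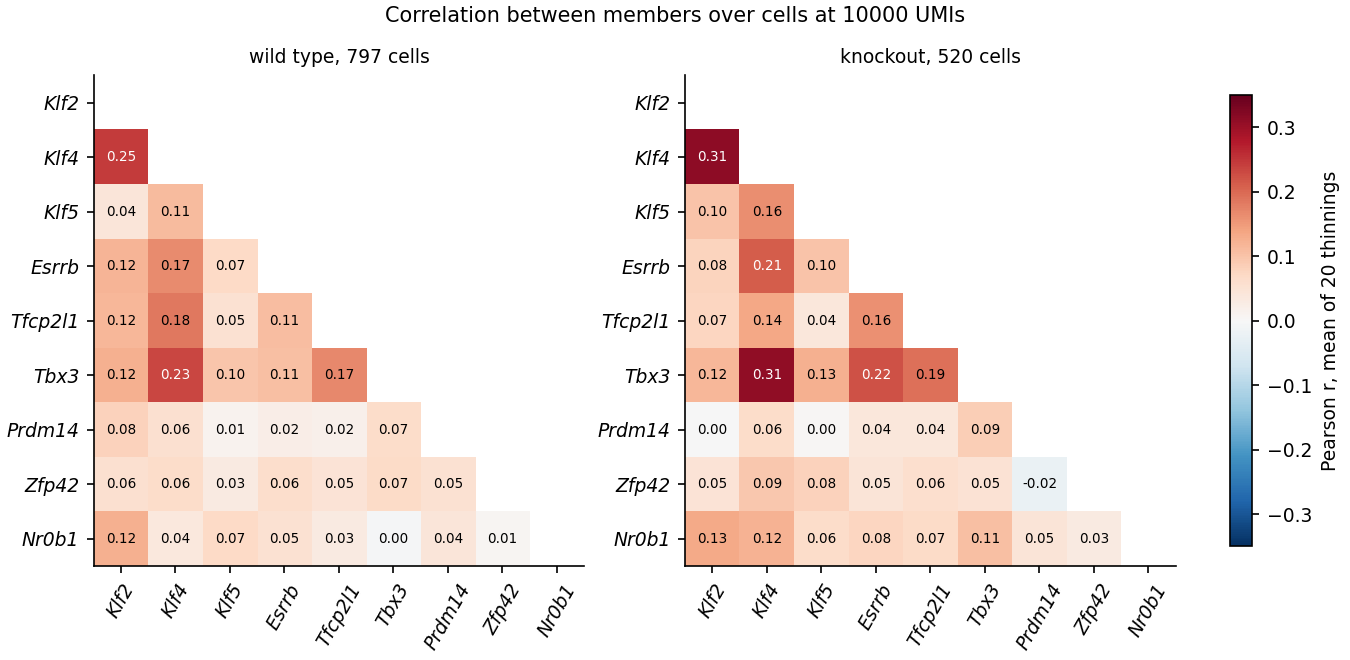
Pearson r between members over low-endoderm cells thinned to 10000 UMIs, mean of 20 thinnings, in 797 WT cells (left) and 520 KO cells (right); colour and the printed value give r. Klf4 with Klf2 and with Tbx3 is the darkest in both libraries, and Prdm14 and Zfp42 are near 0 with most members.

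Counted together, a KO low-endoderm cell held UMIs of 4.47 of the 9 members on average and a WT cell 4.62. Cells with 3 or fewer made up 29.4% of KO (25.5 to 33.5%) and 23.2% of WT cells (20.3 to 26.3%). Those with 8 or 9 made up 2.50% of KO and 2.51% of WT cells. Cells without any were rare, 4 of 520 and 12 of 797. Split by chromosome 8 share and averaged over all thinnings, usual KO cells held 4.87 members and raised ones 4.12, while usual and raised WT cells held 4.59 and 4.64. KO high-endoderm cells held 3.37 in a single thinning. Of these 5 classes, usual KO cells held the most members and KO high-endoderm cells the fewest.

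Outside the 9, the genes whose thinned counts went most closely with the mean of the members were sought among 2077 genes averaging 0.5 UMIs or more. In both libraries, 12 genes were among the 30 highest, and the 10 first by the lower of both r were Mylpf (r of 0.34 in KO and 0.31 in WT), Mybl2 (0.36 and 0.29), Ccnd3 (0.36 and 0.28), Tdh, Aes, Sox2, Sept1, Zfp553, Spp1 and Fn1. Tdh encodes threonine dehydrogenase, an enzyme typical of mouse stem cells, and Mybl2 a cell-cycle transcription factor. The median gene had an r of 0.00 in both libraries, and 95% of genes were below 0.15 in KO and 0.10 in WT. Among the 30 lowest in both were 3 genes: Fau, which encodes a ribosomal protein fusion, Ldha, the lactate dehydrogenase subunit, and Mif. Of the 10, Spp1 (167 CPM in KO, 323 in WT), Ccnd3 (222 and 315) and Sept1 (57.3 and 87.4) were lower in KO past the size limit, where 9.70% of genes were. The 10 were picked by their r with the members, in raised and usual cells together.

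Other genes of the naive network lay on both sides in KO low-endoderm cells. Of 13 other naive-state genes above 10 CPM, 5 were higher past the limit (Gbx2, Fgf4, Nr5a2, Zfp57 and Dppa2) and 4 lower (Dppa3, Sox15, Tcl1 and Dppa5a). Over all genes tested, 17.6% were higher and 9.70% lower by this size, which is the background for the lists that follow too. Gbx2, a homeobox gene induced by STAT3, stood at 53.5 CPM in KO and 23.6 in WT (log2 ratio 1.18), and Dppa3 (Stella), a maternal-effect gene, at 35.9 and 120 (-1.74). Of 8 genes of LIF signalling, Lifr (15.3 and 10.4 CPM) and Stat3 (31.9 and 24.96 CPM) were higher and Pim1 (92.7 and 120 CPM) lower. Of 10 Krüppel-like genes, members included, Klf16 was higher and Klf3, Klf4 and Klf13 lower.

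Of 9 repressors and partners of the members, 2 were higher and none lower, a share near the background. These were the corepressor Tle4 (76.1 CPM in KO, 39.8 in WT, log2 ratio 0.94) and the nuclear receptor Nr5a2 (13.8 and 9.82), which is also counted among the naive-state genes above. Of 7 genes of the formative or primed state, Dnmt3a (96.3 and 46.4 CPM, 1.05) and Etv4 (140 and 78.1 CPM, 0.84) were higher and Lef1 lower. The median log2 ratios of these lists ran from -0.12 (Krüppel-like) to 0.12 (repressors and partners), within the size limit.

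In KO high-endoderm cells, 6 of 11 other naive-state genes were at least 2-fold lower than in low-endoderm cells and none higher. Over all genes tested, 5.03% were lower and 15.4% higher by this size, and the same background holds for the lists below. Fgf4, the growth factor by which epiblast signals to endoderm, stood at 2.21 against 55.1 CPM (log2 ratio -4.50), Gbx2 at 3.98 against 53.5 (-3.67) and Dppa5a at 3466 against 7331 (-1.08). Of the Krüppel-like genes, 11 were above 10 CPM: Klf6 was higher (261 against 41.4 CPM, 2.65) and Klf2 and Klf3 were lower. Of 8 LIF-pathway genes 1 was lower, Pim1 (12.4 against 92.7 CPM, -2.88), and none was higher by 2-fold, with Lifr at 27.0 against 15.3 CPM. Of 8 genes of the primed list, 4 were higher (Fgf5, Car4, Otx2 and Dnmt3b) and 2 lower (Pou3f1 and Etv5). The summed level of the fibroblast genes was 11.9 against 13.8 CPM. That of the trophectoderm list was 42.9 against 23.6 CPM, with Eomes the 1 gene of it at 10 CPM that was higher.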

How the data were processed

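Droplet libraries (10x Genomics Chromium) of 1 KO and 1 WT iPSC culture were used as deposited: whole-number UMI counts per gene and cell, not normalised, per the file headers. The submitters' processing notes name Cell Ranger 2.0.0, Seurat 3.1.1 and mm10; the annotation and the rule for calling cells were not given in the sources used here. Gene identifiers were matched to GENCODE M21 (GRCm38) for 27645 of 27998 genes (98.7%).

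Counts were summed over the cells of a class and scaled to CPM, and log2 ratios were taken with 0.5 counts added. Intervals at 95% are exact (Poisson, conditional on the total for ratios, Clopper-Pearson for shares). Genes averaging 10 CPM or more entered counts by size, at a ratio of 5 to 4 (2-fold between endoderm classes), in place of a test. Shares, variation and correlation used cells thinned without replacement to 10000 UMIs. No doublet caller was run. All 9 members are named; genes of the other lists are named where past the size, and the most similar genes by rank in both libraries. The members and lists were chosen with earlier results of these data known. 1 gene of the primed list is not reported here and was left out of its counts. The steps were tested on simulated data. Python 3.11.15, numpy 2.4.6, scipy 1.17.1, pandas 2.3.3 and matplotlib 3.10.9 were used, and edgeR 4.0.16 for a TMM scaling factor alone. The alternatives tried were other scalings, cell filters, endoderm limits, chromosome 8 classes, thinning depths and measures. With 1 library of each genotype nothing gives the spread between cultures.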

Additional observations from a re-analysis of the deposited data

How the results depend on the processing

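The median log2 ratio of the 9 members between high- and low-endoderm KO cells was -1.37 with 0.5 counts added to the 0 of Prdm14 (-0.78 with Prdm14 at its floor). Computed with the 0.5 counts, it ran from -1.62 to -1.35 under 11 alternatives. The other summaries turned mainly on the chromosome 8 share. In cells with the usual share, the KO over WT median of the members was 0.13 in place of -0.05, the members past the size limit were 2 higher and 0 lower in place of 1 and 3 (Prdm14 counted), the Prdm14 ratio turned to 0.037, the median ratio of excess CV2 was -0.34 in place of 0.29 from 1 thinning, and the difference in members detected per cell was 0.352 in place of -0.147. That last difference was -0.370 without thinning and 0.0239 when 2 UMIs were asked for. The difference in median r (0.018) was -0.0062 with another random seed, and the median ratio of CV2 itself was 0.086; for these the cause was not tested. The remaining alternatives kept these values within the counting error (ratios), 0.2 (excess CV2), 0.02 (r) and 0.1 (members detected). Scaling by the median of ratios or by TMM moved the median of all genes from 0.06 to -0.01 (KO over WT) and from 0.12 to -0.04 and -0.05 (high over low endoderm), and the members' ratios by the same amount. Keeping the fibroblast-marker cells changed no count. The fibroblast limit of 3 UMIs, the averages over thinnings and the apart treatment of both chromosome 8 classes were chosen after seeing the data. No paired analysis was possible because KO and WT had 1 library each. Depth limits Prdm14, with 33 and 74 UMIs.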

Other observations

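The mitochondrial limit removed mainly KO cells: 246 KO and 17 WT cells had under 1% mitochondrial counts. The 227 of them in KO that were low-endoderm, at a median of 8552 UMIs, differed from the 580 KO cells within the limits in several members. In these 227 cells Tbx3 stood at 15.0 CPM (10.6 to 20.6), Esrrb at 13.8 (9.62 to 19.2) and Tfcp2l1 at 19.7 (14.7 to 26.0), all below the levels within the limits (51.4, 63.2 and 52.7 CPM). Klf4 stood at 97.1 CPM against 247, while Nr0b1 was higher, at 104 CPM (91.7 to 117) against 61.1. Zfp42 stood at 122 CPM and Klf5 at 122. The 16 WT cells under 1%, at a median of 16568.5 UMIs, gave 17.5 CPM of Tbx3 from 5 UMIs, and 126 CPM of Klf4. In the 62 KO low-endoderm cells above 10% mitochondrial counts, Klf4 stood at 285 CPM and Tbx3 at 75.8 (53.6 to 104). These cells were left out of each comparison above except where the lower limit was lifted as an alternative. With it lifted, the KO over WT log2 ratio was -0.48 for Klf4, -0.52 for Tfcp2l1 and -0.19 for Esrrb (-0.35, -0.38 and -0.02 within the limits). It was -0.14 for Klf2, 0.09 for Nr0b1 and -0.06 for Tbx3 (-0.09, -0.05 and 0.09 within the limits). The ratios of Klf5, Prdm14 and Zfp42 stayed within their counting error.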
